A study of Sus scrofa with 61 samples.

Results

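The enzymes that remove superoxide and peroxides, and those that make and use glutathione, were followed in the liver of LP offspring from the fetus to the young adult pig. The members were the genes whose single symbol in the annotation of the array belongs to the glutathione peroxidases (GPX), peroxiredoxins (PRDX), thioredoxins and proteins named after them (TXN), superoxide dismutases (SOD), cytosolic and microsomal glutathione transferases (GST, MGST) or glutamate-cysteine ligase (GCLC, GCLM), or is CAT, GSR or GSS. This rule uses names and no measured level, and it gave 65 probe-sets of 40 genes, out of 6765 genes with a symbol of their own on the array. For the 16 genes with several probe-sets, the brightest on average over the 61 arrays stands for the gene. The choice of the probe-set uses a level but no difference between stages.

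Superoxide, which leaks from respiration and is made by oxidases, is turned into hydrogen peroxide by the superoxide dismutases. Hydrogen peroxide and lipid peroxides are then removed along parallel routes: by catalase in peroxisomes, by glutathione peroxidases at the expense of glutathione, and by peroxiredoxins, most of which are recharged by thioredoxin. Glutathione is made from glutamate, cysteine and glycine by glutamate-cysteine ligase and glutathione synthetase and kept reduced by glutathione reductase, while the glutathione transferases couple it to reactive and foreign compounds, for which the liver is the main site.

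Each of 61 animals gave liver RNA for 1 Affymetrix Porcine Genome Array: 16 fetuses of 94 dpc (days post conception), 14 piglets of 1 dpn (days post natum), 15 weaners (28 dpn) and 16 young adult pigs (188 dpn), all German Landrace. All 61 animals were born to, or taken from, gilts on a gestational low protein diet (LP), so the diet is shared by every group. Animals of dams on an adequate diet were not analysed here, and a course of these genes cannot be assigned to the diet. Neighbouring stages were compared: fetus to newborn (period I), newborn to weaner (period II) and weaner to adult (period III), and fetus to adult as the whole course. Fetuses were taken by Caesarean section in an experiment of their own, while the postnatal animals were farrowed in another, and the experiment cannot be told apart from the stage in period I or over the whole course. Weaners and adults are described as fasted overnight and newborns are not, which cannot be told apart from age in period II. Postnatal piglets beyond the first days were suckled by foster sows on the adequate diet and males were castrated. Animals of a stage were chosen as sib pairs of 8 litters, light and heavy at the first 2 stages, although not every pair is complete among the arrays. The piglets of a postnatal litter were also divided over the 3 later ages, so that siblings may stand on both sides of periods II and III. The labels identify no litter; all animals were treated as independent, so P-values may be off.

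Values are log2 of the deposited signal intensity, and a change is the later minus the earlier stage mean on that scale. Levels of different genes are not compared, since probe-sets differ in how strongly they bind. Testing required a signal over the median of its array in 50% or more of either stage's animals and an SD over both stages of more than 0.25. A call required both P and q to reach 0.05 or less by limma, where q is the false discovery rate of Storey and Tibshirani over all probe-sets tested. Each array had been scaled to a common mean, while the median signal per array was lower at later stages (166, 149, 117 and 101 in linear units, as the median over the arrays of each stage in order of age). As a sign of RNA quality, the mean difference between the control probe-sets at the 3' and 5' end of beta-actin was 2.27, 1.78, 3.94 and 4.03 on the log2 scale at these stages, and it therefore moved with stage in period II. For the GAPDH controls the mean difference went from 1.05 in fetuses (SD 0.29) to 0.39 in newborns (SD 0.27), 0.79 in weaners (SD 0.13) and 0.64 in adults (SD 0.12), and so moved with stage in periods I and II. The part of these differences in the results was not tested. The hepatocyte markers listed for the check of the tissue, such as ALB and HNF4A, had stage means above the array median in 12 of 12 genes at each stage.

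More of these genes rose than fell in periods I and II, and as many rose as fell in period III. In period I, 34 of the 40 members were tested, and 21 rose and 7 fell, or 61.8% and 20.6% of those tested, against 26.1% higher and 41.6% lower among all probe-sets tested. In period II, 17 rose and 7 fell of 32 tested (53.1% and 21.9%), against 28.9% higher and 41.4% lower. In period III, 8 rose and 8 fell of 26 tested (30.8% each), against 18.3% higher and 35.7% lower. Over the whole course, 22 rose and 9 fell of 35 tested (62.9% and 25.7%), against 28.6% higher and 55% lower. The filter on SD admits features that vary, in the members as in the background, and GPX3 and TXNRD3 in period I, GPX7 in period III and these 3 genes over the whole course passed the intensity filter through 1 stage only. In bulk tissue, fewer cells of a type and less RNA per cell cannot be told apart, for these and all later values.

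The median change of the tested members was 0.40 in period I, 0.33 in period II, -0.09 in period III and 0.46 over the whole course, beside medians of -0.16, -0.14, -0.14 and -0.43 over all probe-sets tested. Relative to those medians, the members lay 0.56, 0.47, 0.05 and 0.89 higher. The members were also bright: their median of mean log2 signals was 11.45, beside 8.71 for all named genes. Among named genes in the middle range of the members' brightness (9.35 to 13.22), 45.8%, 42.1%, 30% and 49.1% were called higher and 32%, 36.4%, 39.9% and 40.2% lower in the 3 periods and over the whole course. The median changes of these genes were 0.15, 0.08, -0.10 and 0.19, nearer to those of the members than the medians over all probe-sets tested. In all, 82.4%, 75%, 61.5% and 88.6% of the tested members were called, against 77.8%, 78.5%, 69.9% and 89.3% of these genes. Beside genes of like brightness the shares of the members were thus closer to the background, and in period III the share called higher was nearly the same (30.8% against 30%).

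Scaling moved the split of the calls. Over the whole course, 34.2% of all calls were higher as deposited, 49.5% after quantile normalization and 61.3% after subtraction of array medians, with median changes of all probe-sets tested of -0.43, -0.02 and 0.31. The share higher among the called members was 71%, 67.7% and 90.6% under the same settings, with median changes of 0.46, 0.52 and 1.06. In period II the share of all calls that were higher went from 41.1% to 51.3% and 67.6% and that of the members from 70.8% to 63.6% and 88.9%. In period III these shares were 33.9%, 49.8% and 59.5% for all and 50%, 42.9% and 61.9% for the members, and in period I 38.5%, 47.2% and 50.9% for all and 75%, 72.4% and 76.7% for the members. The medians of all probe-sets tested were -0.16, -0.03 and 0.02 in period I, -0.14, 0.02 and 0.27 in period II and -0.14, 0.00 and 0.07 in period III. The median change of the members was above that of all probe-sets in each period and over the whole course under these 3 scalings except in period III after quantile normalization (-0.07 against 0.00).

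**Figure D1:**
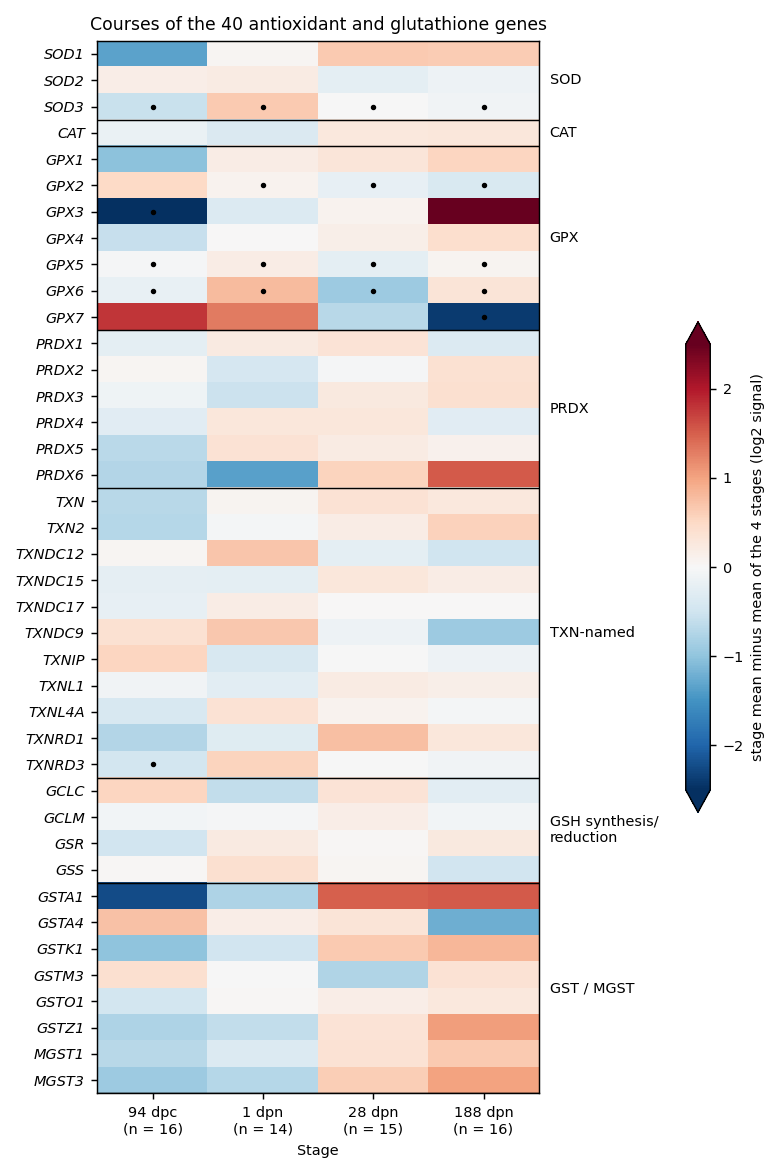
Stage mean of each of the 40 members minus the mean of its 4 stage means, in log2 signal (colour), with stages in columns (16, 14, 15 and 16 animals) and genes in rows by family; a black dot marks a stage mean below the mean array median. The colour scale ends at 2.5 in both directions. Of the 40 members, 21 had their lowest mean at 94 dpc and 15 their highest at 188 dpn, GPX7 ran the other way from GPX3, and GPX5, GPX6 and SOD3 stayed below the array median.

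By stage mean, 21 members were lowest in fetuses, 8 in newborns, 4 in weaners and 7 in adults. The highest mean was that of fetuses in 6, of newborns in 12, of weaners in 7 and of adults in 15 members. These orders include differences that were not called. Over the 3 periods, 8 members were called in each, 17 in 2, 10 in 1 and 5 in none. The number of periods with a call was not counted for other genes. Of tested named genes of like brightness, 77.8% had a call in period I, 78.5% in period II and 69.9% in period III. The counts of periods therefore cannot set the members apart from such genes. In all 3 periods, 22 members could be tested. Among the members, only TXN2 was called higher in all 3 periods and only GPX7 lower in all 3. GPX5, GPX6 and SOD3 were never tested, being under the intensity filter at every stage: GPX5, the epididymal peroxidase, was above the array median in 0 of 61 animals, GPX6, an olfactory form, in 2 and SOD3, the extracellular dismutase, in 4.

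Stages without any overlap between animals were seen in both directions. In period I, 6 of 34 tested members were higher in every piglet at 1 dpn than in every fetus and 0 were lower, against 3.38% and 4.32% of all probe-sets tested. In period II, 6 of 32 tested members were higher and 1 lower without overlap (background 4.09% and 5.8%). In period III, 1 of 26 was higher and 0 lower (0.509% and 0.855%). Over the whole course, 13 of 35 were higher and 3 lower (8.73% and 17.6%). These counts include GPX3 in period I and GPX3 and GPX7 over the whole course, which passed the intensity filter through 1 stage only.

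**Figure D2:**
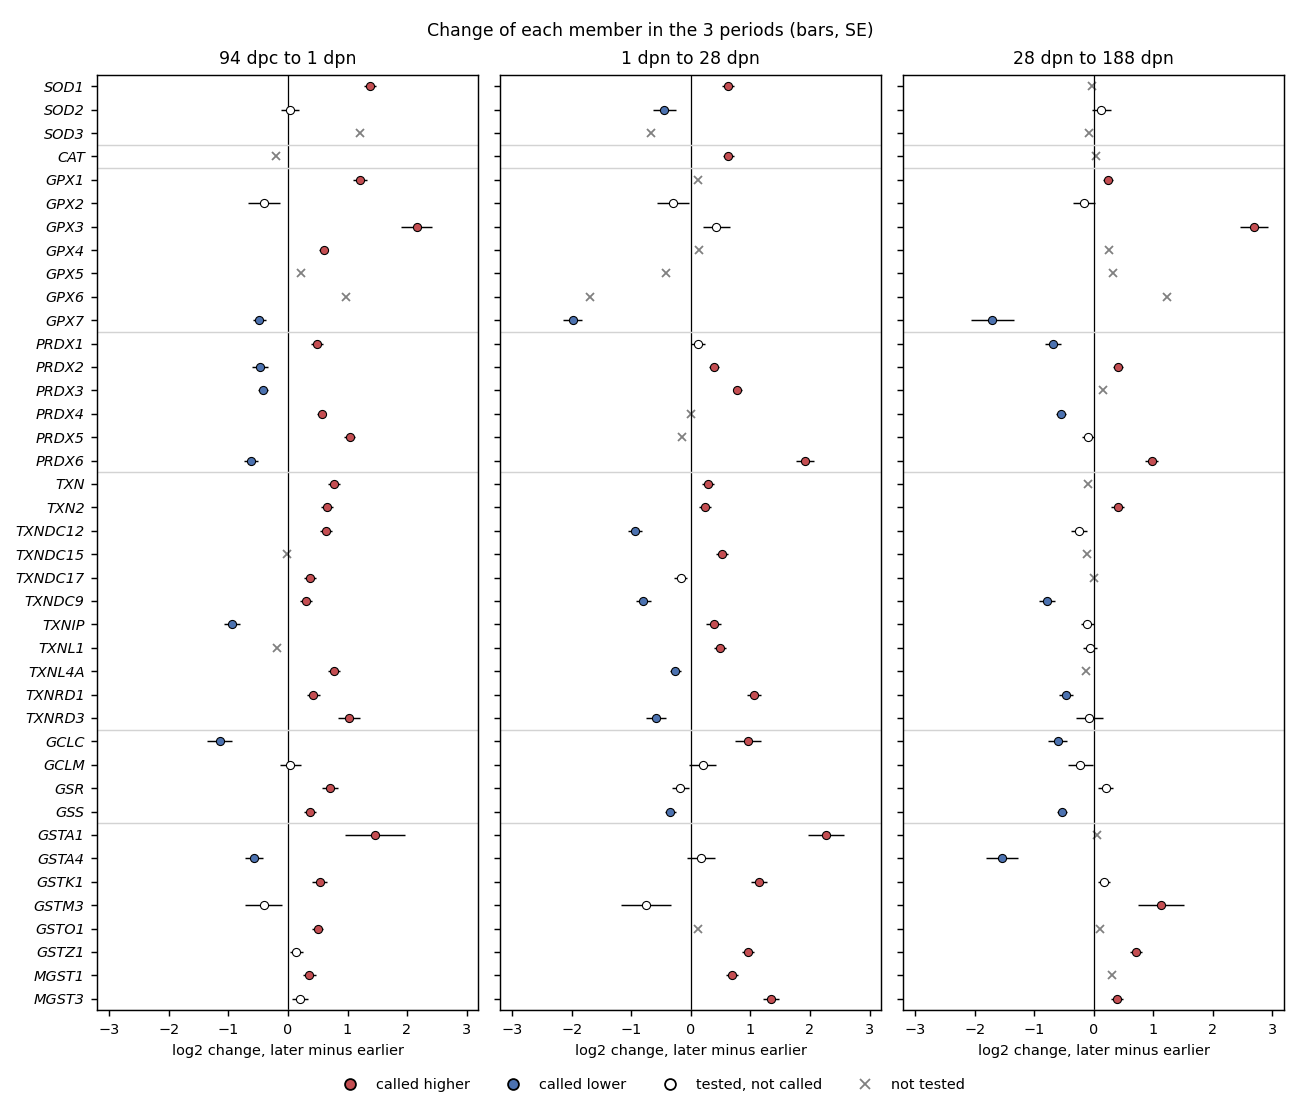
Change of each member, later minus earlier stage mean in log2 signal (x axis), with the SE as a bar, in period I (left), period II (middle) and period III (right). Red points were called higher, blue points lower, open points were tested and not called, and grey crosses were not tested. Red points dominate the left panel (21 of 34 tested) and, among the transferases at the foot, the middle panel (5 of 7 tested), while the right panel holds 8 red and 8 blue points.

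Among the superoxide dismutases, the cytosolic enzyme rose around birth and went on to its plateau by weaning, and the mitochondrial enzyme did not follow it. The signal of SOD1, the copper-zinc dismutase of the cytosol, lay between 12.59 and 13.24 (median 13.00) in fetuses, between 13.71 and 14.86 (median 14.38) at 1 dpn, between 14.71 and 15.42 (median 15.00) at 28 dpn and between 14.67 and 15.21 (median 14.97) at 188 dpn. Every piglet was above every fetus, and the older stages overlapped with 1 dpn and with each other. SOD1 rose by 1.38 (SE 0.09, q = 2.34e-14), or 2.6-fold, in period I and rose by 0.62 (SE 0.10, q = 5.07e-07) in period II. In period III it was not tested since its SD over both stages was low, with a change of -0.03. SOD2, the manganese dismutase of mitochondria, lay between 10.82 and 11.83 (median 11.40) at 94 dpc, between 10.81 and 12.66 (median 11.32) at 1 dpn, between 10.49 and 12.53 (median 10.83) at 28 dpn and between 10.45 and 11.79 (median 11.10) at 188 dpn. All stages overlapped, with single high animals at 1 dpn and 28 dpn. Its change was 0.03 (SE 0.15, P = 0.822, q = 0.178) in period I. In period II SOD2 fell by 0.45 (SE 0.19, q = 0.00713), a call that was lost after subtraction of array medians (-0.10), and over the whole course it fell by 0.29 (SE 0.11, q = 0.00139), with the direction reversed at 0.36 under the same scaling.

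**Figure D3:**
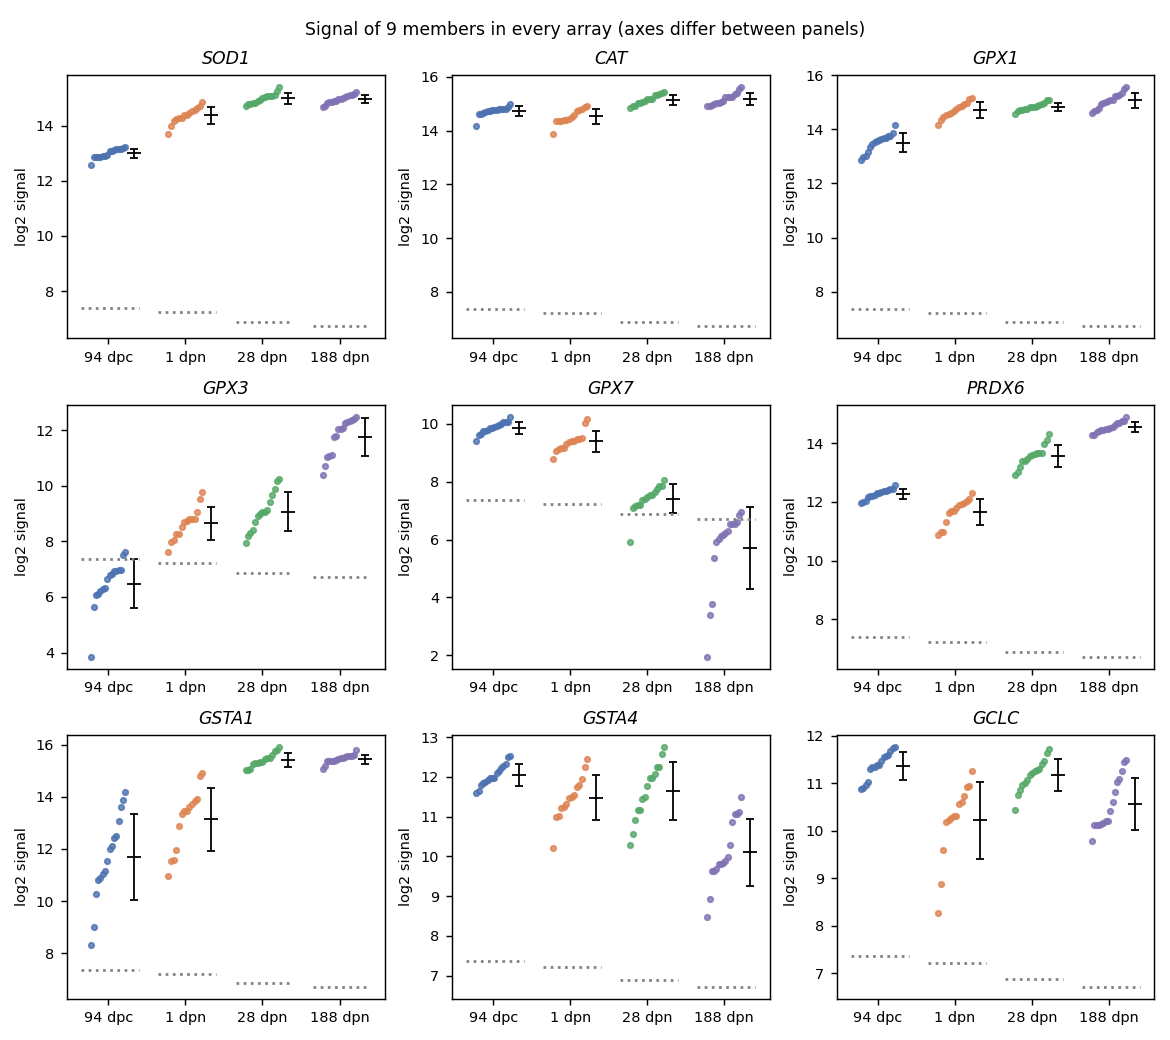
Log2 signal (y axis, scaled per panel) of 9 members in every animal (points, sorted by value within a stage) at the 4 stages, with the stage mean and SD in black and the mean array median as a dotted line. GPX3 at 94 dpc and GPX7 at 188 dpn lie mostly below the dotted line, GSTA1 spreads from 8.34 to 14.18 in fetuses and closes to 15.06 to 15.78 at 188 dpn, and GCLC has its lowest animal, at 8.27, at 1 dpn.

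Catalase, the peroxisomal enzyme that splits hydrogen peroxide without a reductant, changed between 1 dpn and 28 dpn. CAT lay between 14.16 and 14.98 (median 14.78) at 94 dpc, between 13.87 and 14.92 (median 14.46) at 1 dpn, between 14.85 and 15.44 (median 15.16) at 28 dpn and between 14.90 and 15.64 (median 15.16) at 188 dpn. Animals at 28 dpn and 188 dpn were mostly above those at 1 dpn, with overlap in the highest newborns. It rose by 0.63 (SE 0.10, q = 2.31e-07), or 1.54-fold, in period II and rose by 0.46 (SE 0.08, q = 2.7e-07) over the whole course. In periods I and III its SD was under the filter, with changes of -0.20 and 0.03. With no filter the change of -0.20 was called (q = 0.0415).

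Of the 7 glutathione peroxidases, GPX1, GPX3 and GPX4 rose around birth and GPX7 fell through all periods. GPX1, the selenium enzyme of the cytosol that is the main glutathione peroxidase of liver, lay between 12.86 and 14.14 (median 13.58) at 94 dpc, between 14.16 and 15.16 (median 14.71) at 1 dpn, between 14.55 and 15.09 (median 14.82) at 28 dpn and between 14.60 and 15.58 (median 15.06) at 188 dpn. Newborns and fetuses did not overlap, and the postnatal stages did. GPX1 rose by 1.21 (SE 0.12, q = 6.66e-11), or 2.31-fold, in period I, had too small an SD for the test in period II (0.12) and rose by 0.24 (SE 0.09, q = 0.00878) in period III. The period III call was lost after quantile normalization (0.12) and when arrays with outlying 3' to 5' differences (0.19) or the least correlated array per stage (0.23) were left out. GPX4, which reduces peroxides of phospholipids within membranes, lay between 12.27 and 12.84 (median 12.56) at 94 dpc, between 12.87 and 13.52 (median 13.12) at 1 dpn, between 12.94 and 13.58 (median 13.31) at 28 dpn and between 12.98 and 13.98 (median 13.56) at 188 dpn. It rose by 0.60 (SE 0.08, q = 2.37e-08) in period I without overlap, and later changes of 0.14 and 0.26 were not tested for small SD. From fetus to adult GPX4 rose by 1.00 (SE 0.07, q = 4.93e-15). With the mean of both GPX4 probe-sets the changes were 0.32 in period I and 0.34 over the whole course.

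GPX3, the peroxidase that is secreted into plasma and for which kidney is the best known source, had the largest rise of all tested members over the whole course. It lay between 3.86 and 7.62 (median 6.72) at 94 dpc, between 7.63 and 9.77 (median 8.72) at 1 dpn, between 7.95 and 10.24 (median 9.04) at 28 dpn and between 10.37 and 12.48 (median 12.05) at 188 dpn. Fetuses were below every newborn, newborns and weaners overlapped, and every pig at 188 dpn was above every pig at 28 dpn. GPX3 rose by 2.16 (SE 0.26, q = 4.09e-09) in period I, stood at 0.43 (SE 0.23, P = 0.0726, q = 0.0173) in period II and rose by 2.68 (SE 0.24, q = 6.07e-11), or 6.42-fold, in period III. Over the whole course it rose by 5.27 (SE 0.27, q = 1.84e-19), or 38.7-fold, but the signal exceeded the median of its array in only 2 of 16 fetuses and says little of the level in the others. With all signals raised at least to that median, GPX3 was still called, with 1.24 in period I and 4.36 over the whole course.

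GPX7, a peroxidase of the endoplasmic reticulum that works with protein disulfide isomerase and carries cysteine in place of selenocysteine, took the opposite course. It lay between 9.42 and 10.25 (median 9.88) at 94 dpc, between 8.79 and 10.17 (median 9.40) at 1 dpn, between 5.93 and 8.06 (median 7.47) at 28 dpn and between 1.95 and 6.96 (median 6.18) at 188 dpn. Weaners were below every newborn, while the neighbouring stages before and after overlapped. GPX7 fell by 0.48 (SE 0.11, q = 6.24e-05) in period I, fell by 1.99 (SE 0.16, q = 1.01e-12), or 3.96-fold, in period II and fell by 1.71 (SE 0.36, q = 8.31e-05) in period III. From fetus to adult GPX7 fell by 4.17 (SE 0.34, q = 5.11e-14). In adults 2 of 16 animals exceeded the median of their array, and with signals raised to that median the change of GPX7 was -0.75 in period III and -3.15 over the whole course, both called. The period I call was lost in a fit of all 4 stages (-0.48), and the period III call with an intensity filter at the 60th percentile or with the mean of its probe-sets (-0.79). GPX2, the form of the gut lining, was close to the array median at every stage (between 5.67 and 8.23 (median 7.70) at 94 dpc and between 5.81 and 7.33 (median 6.86) at 188 dpn). It was not called in any period and fell by 0.86 (SE 0.20, q = 1.61e-05) over the whole course, a call that either other scaling ended (-0.23 and -0.21) and that was not tested with the filter at the 60th percentile.

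The peroxiredoxins split into 2 sets of 3 in period I, and 3 of 6 rose in period II. PRDX6, which uses glutathione as its reductant and also acts on phospholipids, lay between 11.97 and 12.58 (median 12.31) at 94 dpc, between 10.89 and 12.31 (median 11.75) at 1 dpn, between 12.94 and 14.31 (median 13.61) at 28 dpn and between 14.30 and 14.91 (median 14.50) at 188 dpn. Newborns were lowest, every weaner was above every newborn, and adults overlapped with weaners through the highest weaner alone (14.31 against a lowest adult of 14.30). PRDX6 fell by 0.62 (SE 0.12, q = 1.12e-05) in period I, rose by 1.92 (SE 0.15, q = 6.07e-13), or 3.78-fold, in period II and rose by 0.97 (SE 0.11, q = 4.54e-09) in period III. The mitochondrial PRDX3 ran alike in the first periods: it lay between 13.19 and 14.09 (median 13.62) at 94 dpc, between 12.72 and 13.52 (median 13.24) at 1 dpn, between 13.73 and 14.17 (median 13.98) at 28 dpn and between 13.66 and 14.32 (median 14.21) at 188 dpn. PRDX3 fell by 0.42 (SE 0.08, q = 1.69e-05) in period I and rose by 0.78 (SE 0.07, q = 3.69e-11) in period II without overlap, and it was not tested in period III (0.16). From fetus to adult PRDX3 rose by 0.52 (SE 0.08, q = 5.59e-08), which was 0.08 and not called after quantile normalization.

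PRDX2, the peroxiredoxin that is abundant in red blood cells, spread widely in the fetuses. It lay between 12.09 and 13.63 (median 12.78) at 94 dpc, between 11.73 and 12.72 (median 12.34) at 1 dpn, between 12.38 and 12.98 (median 12.71) at 28 dpn and between 12.64 and 13.50 (median 13.04) at 188 dpn, with overlap between all neighbouring stages. PRDX2 fell by 0.47 (SE 0.14, q = 0.000833) in period I, rose by 0.39 (SE 0.09, q = 5.6e-05) in period II and rose by 0.40 (SE 0.09, q = 9.72e-05) in period III. Markers of erythroid cells moved with the fall in period I: the summed linear signal of 9 erythroid genes ranged from 3313 to 32691 (median 14141) at 94 dpc and from 1351 to 4378 (median 2442) at 1 dpn. At 1 dpn 5 of the 9 had means below the array median, and HBE1 was below it at every stage. In periods II and III, 3 of 6 and 1 of 7 tested erythroid genes rose, and 1 and 0 fell. Over the whole course, where PRDX2 rose by 0.32, 8 of 9 fell and 0 rose, against 55% lower and 28.6% higher of all probe-sets tested. In each comparison some of these genes passed the intensity filter through 1 stage only. The part of these cells in the PRDX2 signal was not tested. The PRDX2 calls of periods II and III were lost after quantile normalization (0.22 and 0.26), that of period III also when arrays with outlying 3' to 5' differences were left out (0.33), and over the whole course its rise of 0.32 turned to -0.17 after that normalization and was 0.25 or 0.27, not called, with arrays left out.

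PRDX1, PRDX4 and PRDX5 rose in period I. PRDX5, found in mitochondria, peroxisomes and cytosol, lay between 12.10 and 13.00 (median 12.50) at 94 dpc, between 12.79 and 13.83 (median 13.53) at 1 dpn, between 13.01 and 13.72 (median 13.43) at 28 dpn and between 12.84 and 13.75 (median 13.27) at 188 dpn. It rose by 1.04 (SE 0.09, q = 8.32e-12), or 2.05-fold, in period I with a narrow overlap and was not called again, at -0.10 (SE 0.10, P = 0.305, q = 0.114) in period III. PRDX4, the peroxiredoxin of the endoplasmic reticulum, lay between 13.46 and 14.13 (median 13.88) at 94 dpc, between 14.15 and 14.77 (median 14.43) at 1 dpn, between 14.22 and 14.69 (median 14.39) at 28 dpn and between 13.36 and 14.42 (median 13.89) at 188 dpn. The 2 middle stages were high and the outer stages low, and fetuses and newborns did not overlap. PRDX4 rose by 0.57 (SE 0.08, q = 3.2e-08) in period I and fell by 0.56 (SE 0.09, q = 1.2e-06) in period III, the former not tested, for its SD, with the mean of its 2 probe-sets (0.29). The cytosolic PRDX1 lay between 12.82 and 13.27 (median 12.98) at 94 dpc, between 13.03 and 14.40 (median 13.46) at 1 dpn, between 13.26 and 14.02 (median 13.58) at 28 dpn and between 12.09 and 13.85 (median 12.85) at 188 dpn. PRDX1 rose by 0.49 (SE 0.10, q = 2.86e-05) in period I, stood at 0.12 (SE 0.11, P = 0.31, q = 0.0633) in period II and fell by 0.68 (SE 0.14, q = 4.58e-05) in period III. The fetal and adult levels of PRDX1 overlapped, with a change of -0.08 (SE 0.13, P = 0.536, q = 0.0506) over the whole course that turned to 0.57 after subtraction of array medians.

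In the thioredoxin system, both thioredoxins and the cytosolic reductase rose around birth while the inhibitor fell. TXN, the cytosolic thioredoxin that recharges most peroxiredoxins, lay between 12.24 and 12.92 (median 12.51) at 94 dpc, between 12.76 and 13.86 (median 13.33) at 1 dpn, between 13.29 and 13.96 (median 13.57) at 28 dpn and between 13.16 and 13.77 (median 13.51) at 188 dpn. Fetuses were lowest, with a slight overlap with newborns. TXN rose by 0.77 (SE 0.10, q = 1.53e-08) in period I and rose by 0.29 (SE 0.10, q = 0.00225) in period II, the second not called after quantile normalization (0.05) and turned to -0.22 with the mean of its 2 probe-sets. TXN2, the thioredoxin of mitochondria, lay between 10.47 and 11.35 (median 10.75) at 94 dpc, between 10.98 and 11.90 (median 11.41) at 1 dpn, between 11.24 and 12.07 (median 11.67) at 28 dpn and between 11.45 and 12.53 (median 12.06) at 188 dpn. Each stage overlapped with the next, and adults did not overlap with fetuses. TXN2 rose by 0.66 (SE 0.10, q = 1.13e-07), rose by 0.24 (SE 0.10, q = 0.00792) and rose by 0.40 (SE 0.11, q = 0.000642) in periods I, II and III. The call of period II was lost in 4 alternatives, with changes of 0.16 to 0.20.

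TXNRD1, the selenium enzyme that reduces cytosolic thioredoxin with NADPH, peaked at 28 dpn. It lay between 8.43 and 9.14 (median 8.73) at 94 dpc, between 8.61 and 10.04 (median 9.03) at 1 dpn, between 9.79 and 10.66 (median 10.23) at 28 dpn and between 9.12 and 10.50 (median 9.67) at 188 dpn. Only the highest newborn reached into the range of the weaners. TXNRD1 rose by 0.43 (SE 0.11, q = 0.000202) in period I, rose by 1.06 (SE 0.12, q = 1.25e-09), or 2.08-fold, in period II and fell by 0.47 (SE 0.11, q = 0.000277) in period III, the last not tested with the mean of its probe-sets (-0.29). TXNIP, which binds thioredoxin and blocks it, lay between 13.44 and 14.61 (median 14.37) at 94 dpc, between 12.69 and 13.97 (median 13.26) at 1 dpn, between 13.19 and 13.97 (median 13.72) at 28 dpn and between 13.15 and 14.20 (median 13.50) at 188 dpn. It was highest in fetuses, fell by 0.93 (SE 0.13, q = 9.44e-08) in period I and rose by 0.38 (SE 0.12, q = 0.00103) in period II, then stood at -0.11 (SE 0.10, P = 0.297, q = 0.111) in period III. The rise in period II was not called after quantile normalization (0.15), and the fall over the whole course (-0.66) was -0.01 after subtraction of array medians.

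TXNRD3, a reductase of thioredoxin and glutathione best known from testis, was dim. It lay between 5.92 and 7.89 (median 6.99) at 94 dpc, between 6.76 and 8.74 (median 8.20) at 1 dpn, between 6.73 and 8.06 (median 7.29) at 28 dpn and between 4.72 and 8.01 (median 7.66) at 188 dpn, over the array median in 5 of 16 fetuses and 13 of 14 newborns. TXNRD3 rose by 1.03 (SE 0.19, q = 4.54e-06) in period I, which was 0.63 with signals raised to the array median, and fell by 0.58 (SE 0.17, q = 0.000568) in period II, which neither other scaling called (-0.31 and -0.23). Its change in period III, -0.08 (SE 0.23, P = 0.741, q = 0.227), turned to 0.30 when arrays with outlying 3' to 5' differences were left out.

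The other members named after thioredoxin carry its fold but serve other tasks. TXNDC9, a partner of the chaperonin that folds tubulin and actin, lay between 9.01 and 9.74 (median 9.48) at 94 dpc, between 9.26 and 10.29 (median 9.71) at 1 dpn, between 8.27 and 9.51 (median 8.89) at 28 dpn and between 7.54 and 9.00 (median 8.06) at 188 dpn. Adults were below every fetus. TXNDC9 rose by 0.30 (SE 0.10, q = 0.00256) in period I, fell by 0.80 (SE 0.12, q = 2.97e-07) in period II and fell by 0.79 (SE 0.14, q = 9e-06) in period III. TXNDC12, a small oxidoreductase of the endoplasmic reticulum, lay between 10.77 and 11.64 (median 11.06) at 94 dpc, between 11.38 and 12.30 (median 11.77) at 1 dpn, between 10.25 and 11.44 (median 10.84) at 28 dpn and between 9.74 and 11.13 (median 10.66) at 188 dpn, highest in newborns. TXNDC12 rose by 0.63 (SE 0.10, q = 5.83e-07) in period I and fell by 0.94 (SE 0.11, q = 2.9e-09) in period II, and its fall over the whole course (-0.56) turned to 0.09 after subtraction of array medians. TXNL4A, a part of the spliceosome, rose by 0.77 (SE 0.10, q = 1.77e-08) in period I without overlap and fell by 0.26 (SE 0.09, q = 0.00228) in period II, where it turned to 0.08 after subtraction of array medians. TXNDC17, a cytosolic disulfide reductase, rose by 0.37 (SE 0.10, q = 0.000434) in period I. TXNL1, which is bound to the proteasome, and TXNDC15 were not tested in period I, and in period II TXNL1 rose by 0.49 (SE 0.10, q = 2.76e-05) and TXNDC15 rose by 0.53 (SE 0.10, q = 4.77e-06).

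Of the 4 genes that make and reduce glutathione, each took a course of its own. GCLC, the catalytic subunit of glutamate-cysteine ligase and the rate-limiting step of glutathione synthesis, lay between 10.88 and 11.77 (median 11.38) at 94 dpc, between 8.27 and 11.27 (median 10.31) at 1 dpn, between 10.44 and 11.71 (median 11.22) at 28 dpn and between 9.78 and 11.50 (median 10.31) at 188 dpn. Newborns were lowest and most spread, with overlap at each step. GCLC fell by 1.15 (SE 0.21, q = 3.71e-06), or 2.22-fold, in period I, rose by 0.95 (SE 0.22, q = 6.13e-05) in period II and fell by 0.61 (SE 0.16, q = 0.000742) in period III. With the mean of its 5 probe-sets these changes were 0.09, -0.52 and -0.34. Over the whole course it fell by 0.80 (SE 0.15, q = 1.4e-06), and the call was lost after subtraction of array medians (-0.15). GCLM, the modifier subunit that raises the affinity of the ligase for glutamate, lay between 7.45 and 8.77 (median 7.82) at 94 dpc, between 6.28 and 8.79 (median 8.00) at 1 dpn, between 6.94 and 9.23 (median 8.07) at 28 dpn and between 6.82 and 8.54 (median 7.93) at 188 dpn. It was called in no period, with 0.04 (SE 0.18, P = 0.83, q = 0.179), 0.20 (SE 0.23, P = 0.391, q = 0.0777) and -0.22 (SE 0.20, P = 0.273, q = 0.104) in periods I, II and III.

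GSS, the synthetase that adds glycine, lay between 9.56 and 10.33 (median 9.93) at 94 dpc, between 9.91 and 10.89 (median 10.32) at 1 dpn, between 9.71 and 10.20 (median 9.96) at 28 dpn and between 9.10 and 9.97 (median 9.42) at 188 dpn. The peak was at 1 dpn and all neighbouring stages overlapped. GSS rose by 0.37 (SE 0.10, q = 0.000277) in period I, fell by 0.35 (SE 0.09, q = 0.000301) in period II and fell by 0.54 (SE 0.09, q = 2.21e-06) in period III. After subtraction of array medians the change in GSS was 0.0016 in period II and 0.14 over the whole course (as deposited -0.51). GSR, the reductase that restores glutathione with NADPH, lay between 9.23 and 10.33 (median 9.67) at 94 dpc, between 9.70 and 11.26 (median 10.39) at 1 dpn, between 9.49 and 10.71 (median 10.13) at 28 dpn and between 9.72 and 10.97 (median 10.38) at 188 dpn. Fetuses were lowest and the postnatal stages overlapped widely. GSR rose by 0.70 (SE 0.13, q = 5.87e-06) in period I and then stood at -0.18 (SE 0.14, P = 0.219, q = 0.0465) and 0.20 (SE 0.13, P = 0.124, q = 0.0544) in periods II and III. With the mean of its probe-sets GSR fell by 1.21 in period II and by 0.93 over the whole course.

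The glutathione transferases rose mainly in period II, when 5 of the 7 tested were called higher and 0 lower, 4 of them without overlap. Of all probe-sets tested in that period, 28.9% were called higher, 41.4% lower and 4.09% were higher without overlap. Of named genes in the middle range of the members' brightness, 42.1% were called higher and 36.4% lower. GSTA1, the alpha class enzyme that is among the most abundant proteins of adult hepatocytes, lay between 8.34 and 14.18 (median 11.78) at 94 dpc, between 10.97 and 14.90 (median 13.45) at 1 dpn, between 15.01 and 15.91 (median 15.34) at 28 dpn and between 15.06 and 15.78 (median 15.46) at 188 dpn. Every weaner was above every newborn, and fetuses spread over a wide range. GSTA1 rose by 1.46 (SE 0.50, q = 0.0024), or 2.76-fold, in period I and rose by 2.26 (SE 0.30, q = 2.55e-08), or 4.8-fold, in period II, and it did not vary enough to be tested in period III (0.04). A further probe-set, marked by the array's maker as shared between transcripts, rose by 1.52 (SE 0.44, q = 0.000668) and rose by 2.74 (SE 0.31, q = 9.74e-10) in the same periods. The alpha class transferases closest to GSTA1 are near-identical copies of it, and neither probe-set can be taken to measure 1 gene alone.

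Transferases of mitochondria, peroxisomes and membranes followed in period II. GSTK1, found in mitochondria and peroxisomes, lay between 11.45 and 12.20 (median 11.67) at 94 dpc, between 11.30 and 12.90 (median 12.29) at 1 dpn, between 13.07 and 13.81 (median 13.36) at 28 dpn and between 13.12 and 14.04 (median 13.46) at 188 dpn. GSTK1 rose by 0.53 (SE 0.13, q = 0.000104) in period I and rose by 1.14 (SE 0.13, q = 2.02e-09), or 2.2-fold, in period II. MGST3, a membrane enzyme that also makes leukotriene C, lay between 11.78 and 12.91 (median 12.28) at 94 dpc, between 11.42 and 13.16 (median 12.44) at 1 dpn, between 13.29 and 14.21 (median 13.79) at 28 dpn and between 13.83 and 14.66 (median 14.13) at 188 dpn. For both genes the 2 earlier stages lay apart from the 2 later stages. MGST3 stood at 0.20 (SE 0.14, P = 0.16, q = 0.0435) in period I, rose by 1.34 (SE 0.14, q = 1.39e-10), or 2.53-fold, in period II and rose by 0.39 (SE 0.10, q = 0.000475) in period III. GSTZ1, the maleylacetoacetate isomerase of tyrosine breakdown, lay between 11.56 and 12.55 (median 11.99) at 94 dpc, between 11.72 and 12.58 (median 12.10) at 1 dpn, between 12.60 and 13.62 (median 13.09) at 28 dpn and between 13.31 and 14.30 (median 13.84) at 188 dpn. It stood at 0.14 (SE 0.11, P = 0.197, q = 0.0522) in period I, rose by 0.96 (SE 0.10, q = 4.71e-10) in period II without overlap and rose by 0.71 (SE 0.10, q = 3.02e-07) in period III.

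MGST1 and GSTO1 also rose around birth, as GSTA1 and GSTK1 did. MGST1, an enzyme of the endoplasmic reticulum and the outer mitochondrial membrane, lay between 12.94 and 13.81 (median 13.53) at 94 dpc, between 13.47 and 14.49 (median 13.73) at 1 dpn, between 14.13 and 14.85 (median 14.61) at 28 dpn and between 14.58 and 15.16 (median 14.83) at 188 dpn. MGST1 rose by 0.36 (SE 0.10, q = 0.000742) in period I and rose by 0.69 (SE 0.10, q = 1.8e-07) in period II, and every adult was above every fetus. GSTO1, the omega class enzyme that reduces dehydroascorbate, lay between 14.16 and 14.73 (median 14.37) at 94 dpc and between 14.39 and 15.19 (median 15.01) at 1 dpn, rose by 0.50 (SE 0.09, q = 2.97e-06) in period I, and changed by 0.13 and 0.10 afterwards, too little in SD to be tested.

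GSTA4 and GSTM3 had other courses. GSTA4, which conjugates aldehydes from lipid peroxidation such as hydroxynonenal, lay between 11.60 and 12.53 (median 11.98) at 94 dpc, between 10.21 and 12.45 (median 11.47) at 1 dpn, between 10.28 and 12.75 (median 11.76) at 28 dpn and between 8.48 and 11.50 (median 9.85) at 188 dpn. Adults were below every fetus and overlapped with weaners. GSTA4 fell by 0.57 (SE 0.16, q = 0.000392) in period I, stood at 0.17 (SE 0.23, P = 0.473, q = 0.0918) in period II and fell by 1.54 (SE 0.27, q = 5.88e-06), or 2.91-fold, in period III. With the mean of its 2 probe-sets, of which the dimmer lay below the array median, the fall in GSTA4 in period III was -0.85. GSTM3, of the mu class, lay between 8.39 and 10.40 (median 9.38) at 94 dpc, between 6.49 and 10.80 (median 9.22) at 1 dpn, between 6.15 and 9.83 (median 8.57) at 28 dpn and between 7.15 and 11.18 (median 9.50) at 188 dpn, with wide overlap throughout. It was called in period III alone, where it rose by 1.13 (SE 0.39, q = 0.00487), and stood at -0.41 (SE 0.31, P = 0.193, q = 0.0513) and -0.75 (SE 0.42, P = 0.086, q = 0.0201) in periods I and II.

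Animals of 1 stage differed little in most members and strongly in a few. Over the 34, 33, 34 and 34 members whose animals all exceeded the median of their array, the median SD within a stage was 0.21 in fetuses, 0.31 in newborns, 0.22 in weaners and 0.27 in adults on the log2 scale. Of these members, GSTA1 had the widest SD at 94 dpc (1.65) and 1 dpn (1.21), beside the next widest, GSTM3 with 0.57 and GCLC with 0.82. Its SD was 0.27 at 28 dpn and 0.17 at 188 dpn. The shared GSTA1 probe-set had SDs of 1.35, 1.19, 0.40 and 0.24 at the 4 stages. At 28 dpn the widest SD was that of GSTA4 (0.72) and at 188 dpn that of GSTM3 (1.04). The narrowest were GPX4 (0.13), PRDX4 (0.19), PRDX3 (0.12) and SOD1 (0.15) from the first to the last stage. Sex and weight class of the animals were not in the labels, and their part was not tested.

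Different probe-sets of 1 gene did not always move together. Of the 16 members with several probe-sets, 1 in period I (GCLC), 4 in period II (GCLC, TXN, TXNDC15 and TXNL1), 0 in period III and 5 over the whole course (GPX4, GSR, TXN, TXNDC15 and TXNL1) had probe-sets called in opposite directions. The GCLC probe-set that rose in period I had a mean of 5.51 in fetuses, below their mean array median of 7.37. The TXNDC15 probe-set that fell over the whole course had a mean of 5.91 in adults, below their mean array median of 6.72. At these stages the signals of both probe-sets carry little information. For TXN in period II, the bright probe-set rose by 0.29 (SE 0.10, q = 0.00225) and the dimmer one fell by 0.73 (SE 0.10, q = 2.14e-08). For GCLC in period II, the brightest rose by 0.95 (SE 0.22, q = 6.13e-05), while another fell by 0.95 (SE 0.20, q = 2.63e-05). In period III the 3 tested probe-sets of GCLC all fell, by 0.61, 0.62 and 0.63. For TXNL1 over the whole course, the brightest rose by 0.23 (SE 0.10, q = 0.00217) and another fell by 1.52 (SE 0.11, q = 2.1e-15). For GSR over the whole course, the brightest rose by 0.72 (SE 0.12, q = 8.08e-08) and another fell by 1.08 (SE 0.23, q = 6.89e-06). The 3' to 5' difference of beta-actin was 1.78 in newborns and 3.94 in weaners, the step that holds 4 of the 5 opposed cases between neighbouring stages, and its part in them was not tested. The directions of GCLC in periods I and II, of TXN, TXNDC15 and TXNL1 in period II and of GPX4, GSR, TXN, TXNDC15 and TXNL1 over the whole course therefore hold for the named probe-set only.

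**Figure D4:**
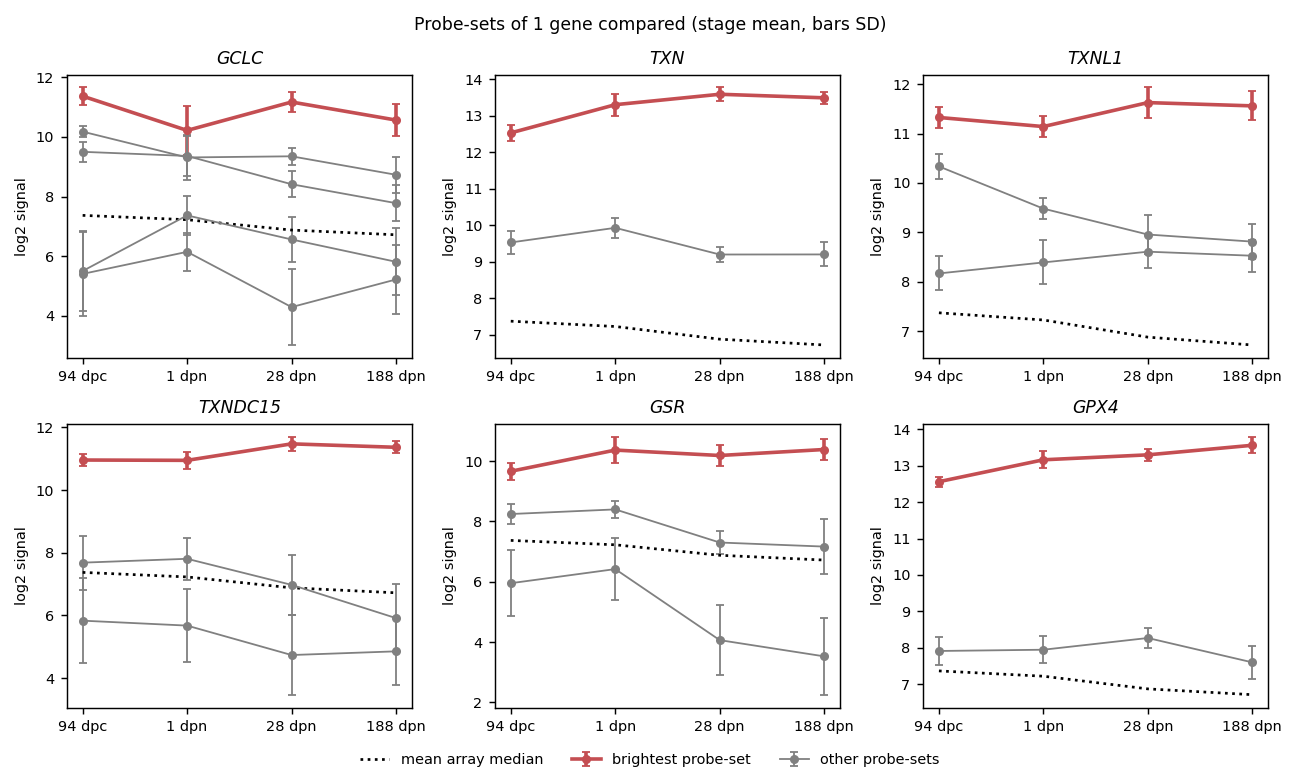
Mean log2 signal (y axis, scaled per panel) with the SD as a bar at the 4 stages for each probe-set of GCLC, TXN, TXNL1, TXNDC15, GSR and GPX4. The brightest probe-set, which stands for the gene, is red, the others are grey, and the dotted line is the mean array median. The grey probe-set of TXN fell by 0.73 from newborns to weaners, while the red one rose by 0.29.

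Genes around these enzymes were read from lists of neighbouring pathways, given as counts with the median change of the tested genes, beside the medians of all probe-sets tested given above. Of all probe-sets tested, 26.1%, 28.9% and 18.3% were called higher and 41.6%, 41.4% and 35.7% lower in periods I, II and III. The lists hold named genes only. Of all named genes tested, 33.9%, 33.1% and 21.6% were called higher and 35.4%, 39.1% and 39% lower in these periods. Named genes in the middle range of the members' brightness, given above, had still larger shares called higher. The counts of pathway genes and of cell type markers stand beside these shares, and a list near them does not stand apart from the background. Within these counts, ME3, CBR1, SELENOI and NCF4 in period I, SELENOI, UOX and DDO in period II and ME1 in period III passed the intensity filter only through the stage where they were high. The supply and turnover of glutathione had 14 tested genes in period I, of which 8 rose and 4 fell (median 0.71). GNMT, which consumes methyl groups and so regulates the methionine cycle that leads to cysteine, rose by 4.16 (SE 0.23, q = 2.57e-16) in period I, rose by 1.52 (SE 0.22, q = 7.34e-08) in period II and rose by 1.02 (SE 0.14, q = 2.78e-07) in period III. In period II 5 rose and 6 fell of 14 (median -0.04), with ABCC2, the canalicular exporter of glutathione conjugates, which fell by 0.94 (SE 0.13, q = 4.14e-08). In period III 8 rose and 5 fell of 13 (median 0.26), and GGT1, which starts the breakdown of glutathione outside the cell, fell by 0.94 (SE 0.12, q = 9.43e-08). Genes of NADPH supply rose in 6 and fell in 1 of 9 in period I (median 0.73), with 4 and 1 of 8 in period II (0.25) and 3 and 4 of 8 in period III (-0.29). IDH2, the mitochondrial isocitrate dehydrogenase, rose by 1.29 (SE 0.07, q = 4.04e-16) and NNT, the mitochondrial transhydrogenase, fell by 1.29 (SE 0.12, q = 1.39e-11) in period I. ALDH1L1, a folate enzyme that yields NADPH, rose by 1.03 (SE 0.14, q = 3.32e-08) and PGD, of the pentose phosphate pathway, fell by 0.81 (SE 0.15, q = 2.65e-06) in period II. ME1, the cytosolic malic enzyme, rose by 1.36 (SE 0.21, q = 1.44e-06) and ME3 fell by 0.67 (SE 0.18, q = 0.000844) in period III.

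Glutaredoxins, glyoxalases and methionine sulfoxide reductases, which repair thiols, aldehydes and oxidised methionine, rose in 7 and fell in 2 of 10 tested in period I (median 0.69). In period II 8 rose and 0 fell of 11 (0.87), and in period III 5 rose and 2 fell of 10 (0.25). GLRX, the cytosolic glutaredoxin, rose by 2.15 (SE 0.12, q = 4.2e-16) in period I, and HAGH, the second glyoxalase, rose by 1.57 (SE 0.11, q = 2.18e-14) in period II. Genes listed as targets of NRF2, the regulator of many antioxidant genes, rose in 5 and fell in 2 of 11 in period I (0.21). Of these genes 7 rose and 0 fell of 9 in period II (0.82), and 8 rose and 0 fell of 12 in period III (0.54). NFE2L2, which encodes NRF2, and KEAP1 had no probe-set with a symbol of their own and are not in these counts. CBR1, a carbonyl reductase, rose by 2.67 (SE 0.29, q = 6.62e-10) in period I, AKR1C1, an aldo-keto reductase, rose by 1.15 (SE 0.19, q = 7.28e-07) in period II and SQSTM1, an autophagy receptor, rose by 1.04 (SE 0.11, q = 9.58e-10) in period III. NQO1, a quinone reductase, rose by 3.02 (SE 0.22, q = 3.33e-15) over the whole course. Some members known as NRF2 targets are named here, which is not a full list of such members. TXN and TXNRD1 rose in periods I and II, with a fall of TXNRD1 in period III. PRDX1 rose in period I and fell in period III, and GSR rose in period I. GCLC fell, rose and fell, and GCLM was called in 0 periods. The directions of TXN in period II and of GCLC in periods I and II hold for the named probe-set only.

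Selenoproteins and genes of selenium handling, of which GPX1 to GPX4 and the thioredoxin reductases are further members, rose in 8 and fell in 2 of 11 tested in period I (median 0.43), and rose in 3 and fell in 7 of 11 in period II (-0.50). In period III 2 rose and 5 fell of 8 (-0.26). SELENOM, of the endoplasmic reticulum, rose by 2.09 (SE 0.22, q = 1.76e-10), and SELENOP, which carries selenium in plasma, fell by 0.77 (SE 0.09, q = 3.97e-09) in period I. SELENOI, a phospholipid enzyme, fell by 2.56 (SE 0.27, q = 2.29e-10) and SEPHS2, which makes the selenium donor, rose by 0.73 (SE 0.08, q = 1.02e-09) in period II. Disulfide isomerases of the endoplasmic reticulum, partners of GPX7 and PRDX4, rose in 6 and fell in 2 of 9 in period I (0.44), and fell in 6 of 7 in period II (-0.54) and 7 of 8 in period III (-0.56), with 0 higher in both. PDIA4 rose by 1.93 (SE 0.11, q = 7.14e-16) in period I, and PDIA3 fell by 0.80 (SE 0.10, q = 9.21e-09) in period II and fell by 1.22 (SE 0.11, q = 4.8e-11) in period III.

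Oxidases that form superoxide or hydrogen peroxide rose in 3 and fell in 3 of 11 tested in period I (median 0.07), in 11 and 2 of 14 in period II (1.00) and in 7 and 3 of 14 in period III (0.26). UOX, the urate oxidase of peroxisomes, rose by 3.65 (SE 0.34, q = 2.89e-11) in period II and DDO, a peroxisomal oxidase of acidic amino acids, rose by 2.18 (SE 0.23, q = 1.64e-09) in period III. NCF4, a subunit of the phagocyte oxidase, fell by 0.95 (SE 0.13, q = 1.16e-07) in period III. Markers of macrophages moved with the phagocyte genes: of 8 tested, 5 rose and 1 fell in period II and 7 fell in period III. MARCO, among these 7, passed the intensity filter through 1 stage only. The summed signals of the macrophage markers were 17910 to 35466 at 1 dpn, 40702 to 63390 at 28 dpn and 27301 to 43469 at 188 dpn, and the part of these cells was not tested. Genes of peroxisome biogenesis rose in 2 and fell in 2 of 7 in period I (-0.01), in 2 and 4 of 7 in period II (-0.33) and in 2 and 0 of 6 in period III (0.20). PEX19 fell by 0.67 (SE 0.13, q = 6.21e-06) in period I and rose by 0.97 (SE 0.12, q = 1.08e-08) in period II. Metal and heme binding proteins rose in 4 and fell in 2 of 7 in period I (0.25), in 0 and 4 of 6 in period II (-0.42) and in 1 and 0 of 7 in period III (-0.04). HPX, the plasma scavenger of heme, rose by 1.49 (SE 0.09, q = 6.1e-16) and MT3, a metallothionein, fell by 1.69 (SE 0.35, q = 1.91e-05) in period I.

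Markers of other cells of the liver, and of fetal hepatocytes, also differed between the stages. The summed signal of 10 genes of dividing cells ranged from 3053 to 11254 in fetuses, 4171 to 17486 in newborns, 1477 to 8622 in weaners and 715 to 1253 in adults, where 9 of the 10 had means below the array median. That of 8 granulocyte genes ranged from 1929 to 55479, 2373 to 23755, 520 to 2087 and 447 to 2134 at these stages, and ITGAM was below the array median at each. Lymphocyte genes, 8 in number, had all their stage means below the array median at 94 dpc and 1 dpn and 4 of 8 at 28 dpn, with summed signals of 237 to 728 in newborns and 814 to 4820 in weaners. Endothelial genes rose in 1 and fell in 2 of 5 tested in period I rose in 2 and fell in 2 of 6 in period II, where VWF and KDR passed through 1 stage only, and rose in 1 and fell in 3 of 5 in period III. The 12 hepatocyte genes had summed signals of 346131 to 682269 (median 514718) at 94 dpc, 427386 to 675404 (median 569898) at 1 dpn, 353646 to 574278 (median 438949) at 28 dpn and 347990 to 556697 (median 416893) at 188 dpn, with overlap of all stages. Of these genes 4 rose and 1 fell of 10 tested in period I, 1 rose and 6 fell of 9 in period II (ALB, TF, APOB, TAT, SERPINA1 and APOA1 lower), and 2 rose and 6 fell of 10 over the whole course. The 4 genes listed for fetal hepatocytes had summed signals of 105594 to 163924 at 1 dpn and 28982 to 56210 at 28 dpn, without overlap, and 3 of 4 fell in period II (AFP, IGF2 and AHSG). AHSG was called higher in period I and was not called over the whole course, where AFP, IGF2 and GPC3 fell. At 188 dpn the sum was still 28203 to 55007 with the mean of AFP below the array median, so it does not follow fetal hepatocytes alone. Of the genes of stellate cells and fibroblasts, 9 in number, the sums ranged from 6070 to 16901 at 1 dpn and 8632 to 15596 at 28 dpn, and those of 5 biliary genes from 1095 to 3054 at 28 dpn and 784 to 1407 at 188 dpn. The part of these cells in the courses of the members was not tested.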

How the data were processed

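The analysed samples are 61 livers of LP offspring, 1 animal per array, grouped by the age in the labels. The deposited intensity values are 1 linear signal for each of 24123 probe-sets and array, scaled globally by the authors before deposition, with GCOS 1.1.1 named in the submitters' processing notes. The mean after trimming 2% at each end was 500.127 to 500.229 on all arrays. The log-transformed GC-RMA values and MAS5 calls of the methods were not used here, so the array median served as the intensity filter. After removal of 124 controls, 23999 probe-sets were taken to log2. Of these, 10069 carried 1 symbol, 198 several and 13732 none, and all 40 members' gene IDs had the same symbol in RefSeq.

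Stages were compared two-sided with limma 3.58.1 (statmod 1.5.0) in R 4.3.3, on the arrays of both stages and with stage as the only term. Sex, mother and weight, terms of the study's model, are not in the labels. The q-values after Storey and Tibshirani used lambda from 0.05 to 0.95 in steps of 0.05 and a spline with 3 degrees of freedom. Periods that share a stage share its animals and are not independent. The number of arrays limits the precision. Plots were made in Python 3.11.15 with matplotlib 3.10.9.

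Values by stage are given for the called members that rose most and fell most in each comparison (5 each way) and for the main enzyme of each arm. From pathway lists, some of the genes that rose or fell most in a comparison are named. Members and lists were chosen with earlier results of these data known. Alternatives were Benjamini-Hochberg adjustment, quantile normalization, subtraction of array medians, no filters, an intensity filter at the 60th percentile, signals raised to the array median, a pseudocount of 16, all 4 stages in 1 fit, array weights, averaging all probe-sets of a gene, and leaving out 9 arrays whose 3' to 5' control differences lay over 3 scaled median absolute deviations from the stage median or the least correlated array of each stage. All 61 arrays entered the reported values.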

Additional observations from a re-analysis of the deposited data

How the results depend on the processing

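Of 96 counts of called members under 12 alternatives, 92 stayed within 1.5 times the reported count. With array medians subtracted, 3 members were lower in period II and 3 over the whole course, and 13 were higher in period III. When all probe-sets of a gene were averaged, 11 were lower in period II. Of the called members, 25 of 28 in period I, 13 of 24 in period II, 12 of 16 in period III and 20 of 31 over the whole course were called in the same direction in every alternative. Compared by call, 1823 results of single members under an alternative were the same, 47 gained a call, 32 lost it and 18 reversed. Those counted as the same include members not called or not tested under both settings, whatever their change. A reversal is a change of sign in a member called under either setting.

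The same averaging reversed GCLC in period I (0.090), GCLC (-0.52), TXN (-0.22) and TXNDC15 (-0.42) in period II, and GSR (-0.93), PRDX4 (-0.92), TXNDC15 (-0.78) and TXNL1 (-0.31) over the whole course. With array medians subtracted, GSS (0.0016) and TXNL4A (0.082) reversed in period II and GSS (0.14), GSTM3 (0.62), PRDX1 (0.57), SOD2 (0.36) and TXNDC12 (0.092) over the whole course. Quantile normalization reversed PRDX2 (-0.17) and PRDX4 (-0.46) over the whole course, and leaving out arrays with outlying 3' to 5' differences reversed TXNRD3 in period III (0.30). The cause was not tested. No paired analysis was possible because the labels number the animals through the series and no stages share a number. Signals below the array median carry little information, which limits GPX2, GPX3 in fetuses, GPX7 in adults, TXNRD3, GPX5, GPX6 and SOD3.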
